A study of Mus musculus with 28 samples.

Results

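This account concerns the hypothalamus of mice heterozygous for a disrupted histidine decarboxylase gene (Hdc het) against that of wild-type (WT) mice. All 29878 genes of the deposited count tables were considered, and the 13975 that exceeded 1 CPM, the count of a gene scaled to the size of its library, in at least 2 of the 6 libraries, 46.8% of those listed, were compared between 3 heterozygous libraries (4f, 5f and 6f) and 3 WT libraries (1f, 2f and 3f). The study sequenced RNA from 4 brain regions of WT, heterozygous and Hdc-knockout (KO) mice in 28 libraries. Mice were 2 to 3 months old, were untreated as far as the labels say, and came from a line backcrossed to C57Bl/6 in which the gene is disrupted in every cell of the body. Heterozygous mice carry one disrupted and one intact copy, KO mice lack an intact copy, and 2 KO hypothalamus libraries (7f and 8f) are shown for reference, against the same WT libraries. The digit in each library name recurs across regions, but the labels do not say that it marks a mouse, so libraries were treated as separate samples. The p-values measure only the spread between libraries, which was estimated from all 28 libraries of the 4 regions together.

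Histidine decarboxylase makes histamine from histidine, and in the brain it is found in neurons of the tuberomammillary nucleus, a small group of cells in the posterior hypothalamus that sends axons throughout the forebrain and promotes wakefulness. Histamine is loaded into vesicles by the monoamine transporter Slc18a2, acts on the receptors Hrh1, Hrh2 and Hrh3, and is broken down by Hnmt and then by Maob. The hypothalamus is therefore the region of this series in which the gene is expressed by the cells that normally use it, and the comparison asks what the loss of a single copy does to the transcripts of that region.

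The heterozygous hypothalamus libraries held 4815700, 4765220 and 4716908 counts on genes and the WT libraries 4388823, 4901109 and 4582983. Hypothalamic markers were present in all of them: Hcrt, the orexin precursor, lay between 43.7 and 76.1 CPM and Pmch, the precursor of melanin-concentrating hormone, between 71.6 and 114 CPM. Over the 500 genes that differed most within each pair of libraries, the root mean square log2 difference between a heterozygous and a WT library had a median of 1.37 and a range of 1.19 to 1.47 over 9 pairs, against 1.31 to 1.38 for the 3 pairs of WT libraries and 1.28 to 1.48 for the 3 pairs of heterozygous libraries. These ranges overlapped, so the profiles did not separate by genotype beyond the spread between replicates.

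No difference in Hdc between heterozygous and WT hypothalamus was detectable at this depth. It stood at 15.2, 18.9 and 16.7 CPM in the WT libraries, at 14.5, 21.6 and 15.1 CPM in the heterozygous libraries and at 11.7 and 14.1 CPM in the KO libraries. The WT and heterozygous values overlapped throughout, and the KO values lay below the lowest WT and heterozygous libraries. The log2 fold change of heterozygous against WT was 0.01 (SE 0.18), where the likelihood ratio test of edgeR, Benjamini-Hochberg adjusted over all genes, gave p = 0.999, and the exact two-sided permutation test over libraries gave p = 1.0, where 3 against 3 cannot go below 0.1. Counts per gene do not show which part of a gene the reads came from, so reads of a disrupted copy and of an intact copy cannot be told apart here, nor, in bulk tissue, can fewer cells that express a gene and less RNA per cell. In the ventral striatum, where Hdc lay between 0 and 1.62 CPM in WT, the heterozygous libraries held 5.31, 5.24 and 5.52 CPM and the KO libraries 11.6 and 12.9 CPM, so there the 3 genotypes did not overlap and the libraries labelled KO held the most Hdc transcript and the WT libraries the least. The Hdc count therefore separated the 3 genotype labels in the ventral striatum, although it ran against the number of intact copies. In hypothalamus it did not separate heterozygous from WT, so there it does not check those labels. The authors report altered Hdc transcript levels and give no direction. Hdc was the only gene of 13975 (0.00716%) whose heterozygous effect differed between the hypothalamus and the ventral striatum, by -3.02 on the log2 scale (SE 0.61, adjusted p = 1.68e-05, likelihood ratio test).

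The other members of the histamine list also differed by less than the test could call. Of 9 genes listed, 7 passed the filter, 3 were higher and 4 lower in heterozygous hypothalamus, none passed an unadjusted p of 0.05 in the likelihood ratio test, and the median log2 fold change was -0.05 against 0.01 over all genes. Slc18a2 had the smallest p of the list and a log2 fold change of 0.36 (SE 0.21), with 45.5, 57.7 and 33.3 CPM in WT and 60.8, 40.6 and 73.8 CPM in heterozygous libraries. These values overlapped. The log2 fold change was 0.17 (SE 0.12) for Maob, -0.33 (SE 0.27) for Hrh1, -0.26 (SE 0.29) for Hrh2, -0.13 (SE 0.20) for Hnmt and -0.05 (SE 0.15) for Hrh3, the receptor that also sits on the histamine neurons themselves.

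Across all genes, 14 of 13975 (0.10%) passed an adjusted p of 0.05, of which 6 (0.0429%) were higher and 8 (0.0572%) lower in heterozygous hypothalamus. At an unadjusted p of 0.05, 796 genes passed (5.70%), of which 410 were higher (2.93%) and 386 lower (2.76%), close to the share that the threshold itself allows. A stricter form of the test left few of these calls: edgeR's quasi-likelihood test and DESeq2's Wald test with all genes adjusted together each called the same 2 genes, Pla2g4e and Gm26917. The other 12 calls rest on the likelihood ratio test, and those reported here are described with their values in every library.

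**Figure D1:**
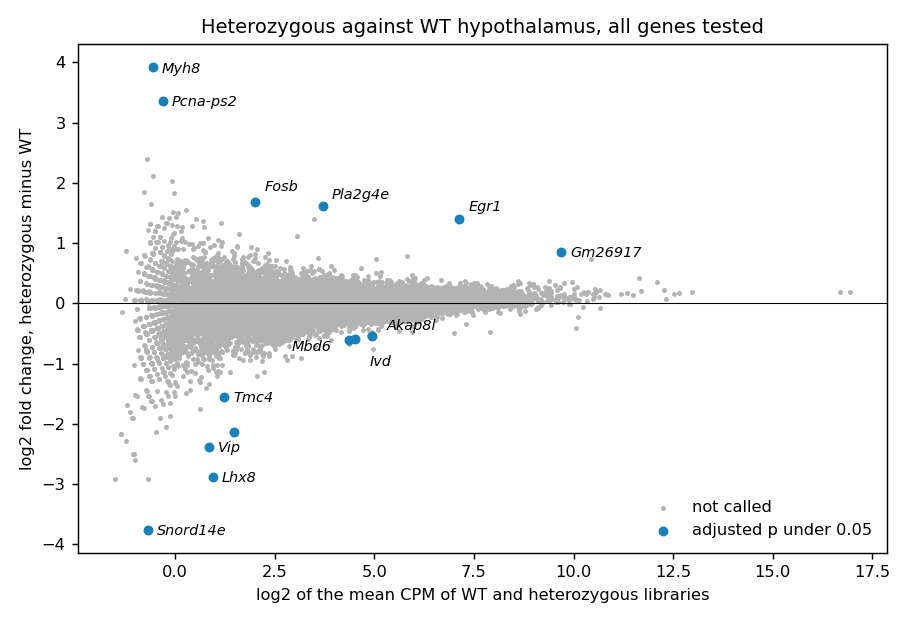
Each point is a gene tested in hypothalamus, with the log2 of its mean CPM over the 6 libraries on the horizontal axis and the log2 fold change of heterozygous against WT on the vertical axis. Blue marks the 14 genes with an adjusted p under 0.05, of which 13 are named, and 8 of the 14 lie at a mean below 5 CPM, where the cloud of all genes is widest.

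Pla2g4e, which encodes a calcium-dependent acyltransferase of the cytosolic phospholipase A2 family that makes N-acyl phosphatidylethanolamines, had the smallest p of all genes. It stood at 9.40, 4.76 and 5.34 CPM in the WT libraries and at 18.7, 20.3 and 20.1 CPM in the heterozygous libraries. The 3 heterozygous libraries were alike, and all lay above the highest WT library. The log2 fold change was 1.61 (SE 0.20, adjusted p = 5.61e-12 in edgeR's likelihood ratio test), and the call held without any one of the 6 libraries, with adjusted p-values from 1.97e-14 to 4.71e-07. The 2 KO libraries were higher again, at 31.5 and 38.8 CPM, so that the levels rose in the order WT, heterozygous, KO, and KO exceeded heterozygous by 0.83 on the log2 scale (adjusted p = 0.00404, likelihood ratio test). The same order was seen in the ventral striatum, with 3.61 ± 0.21 CPM in WT, 15.4 ± 0.53 in heterozygous (SD, n = 3 each) and 31.3 ± 2.73 in KO libraries (SD, n = 2), and the heterozygous effect did not differ between hypothalamus and ventral striatum beyond its error (difference of -0.48 on the log2 scale, adjusted p = 1.0, likelihood ratio test). Pla2g4e lies on chromosome 2 at 120166412 to 120245335 (GRCm38, minus strand), on the same chromosome as Hdc.

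Gm26917 is a long intergenic noncoding RNA on chromosome 17 at 39843013 to 39846341 (GRCm38, plus strand). It stood at 539, 532 and 704 CPM in the WT libraries and at 965, 1377 and 859 CPM in the heterozygous libraries. All 3 heterozygous libraries lay above all 3 WT libraries, a pattern that 864 genes (6.18%) showed in this direction. The log2 fold change was 0.85 (SE 0.16, adjusted p = 4.38e-04 in edgeR's likelihood ratio test), and the adjusted p rose to as much as 0.0741 when library 5f of the heterozygous group or library 1f of the WT group was left out. The KO libraries, at 1311 and 979 CPM, lay inside the heterozygous range. In the ventral striatum WT libraries already held 1021 ± 141 CPM (SD, n = 3), and the difference there was 0.11. RefSeq places Rn18s-rs5, a sequence related to 18S ribosomal RNA, 13 bases beyond the end of Gm26917. The Ensembl gene at that place, Gm42418, was at 1047 ± 281 CPM in WT and 1087 ± 91.7 CPM in heterozygous libraries (SD, n = 3 each), a log2 difference of 0.06 (SE 0.21). The authors removed reads that matched ribosomal RNA before alignment, and the part that step played in the level of Gm26917 was not tested.

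**Figure D2:**
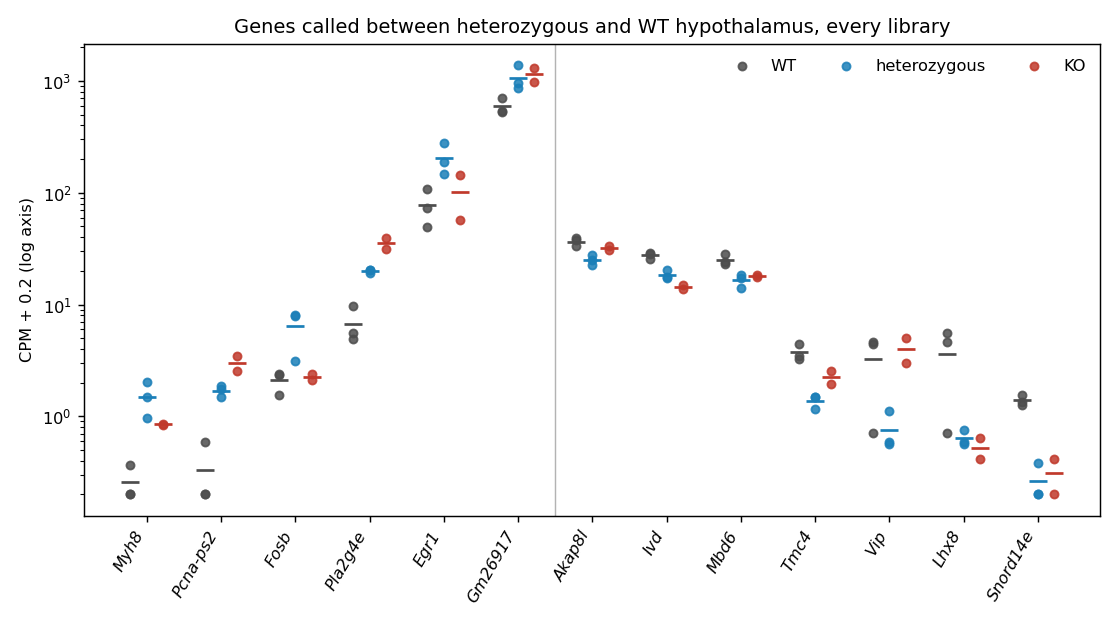
CPM plus 0.2, on a log axis, of 13 of the 14 called genes in every hypothalamus library, with WT in grey, heterozygous in blue, KO in red and short bars for group means; genes left of the vertical line were higher and those right of it lower in heterozygous hypothalamus. Both Vip and Lhx8 have a WT library at the heterozygous level.

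Immediate early genes, which neurons switch on within minutes of activity and most of which encode transcription factors, had the highest median of the gene lists. Fosb, a partner of Jun proteins in the AP-1 complex, stood at 1.34, 2.21 and 2.14 CPM in the WT libraries and at 7.72, 7.93 and 2.90 CPM in the heterozygous libraries. Library 6f was much closer to WT than 4f and 5f were, although the groups did not overlap. The log2 fold change was 1.68 (SE 0.39, adjusted p = 0.00973 in edgeR's likelihood ratio test). Egr1, a zinc finger factor on chromosome 18, stood at 49.5, 108 and 72.8 CPM in WT and at 187, 277 and 146 CPM in heterozygous libraries, again without overlap, and its log2 fold change was 1.41 (SE 0.32, adjusted p = 0.0169 in the same test). In the KO libraries Fosb was at 2.17 and 1.92 CPM, within the WT range, and Egr1 at 56.9 and 145 CPM, of which the second lay above it. Both calls depended on single libraries: Fosb did not pass without 4f, 5f, 1f or 3f (adjusted p up to 0.294) and Egr1 did not pass without 5f, 1f or 3f (up to 0.604).

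Of 20 immediate early genes listed, all 20 were tested, 17 were higher in heterozygous hypothalamus and the median log2 fold change was 0.43, against 0.01 over all genes, of which 53.1% were higher. With libraries scaled by size alone, which moved the median of all genes from 0.01 to -0.09, the list had 14 members higher and a median of 0.33. Besides the 2 called genes, 4 more passed an unadjusted p of 0.05 in the likelihood ratio test, all higher: Fos, Egr4, Nr4a3 and Egr3. Over all genes 0.0429% were called higher and 2.93% passed the unadjusted threshold in that direction. All 3 heterozygous libraries lay above all 3 WT libraries for 4 of the 20, a pattern that 6.18% of all genes showed. Fos, the classical marker of recent neuronal activity, was at 3.07, 10.5 and 4.98 CPM in WT and at 16.7, 22.5 and 10.05 CPM in heterozygous libraries, so that library 2f of WT overlapped library 6f, with a log2 fold change of 1.39 (SE 0.40, adjusted p = 0.306). Egr4 had a log2 fold change of 2.03 (SE 0.72) at no more than 2.58 CPM. Nr4a3, an orphan nuclear receptor, had one of 1.12 (SE 0.51) and Egr3 one of 1.00 (SE 0.51), and both were highest in library 5f. Without 5f the log2 fold change was 0.46 for Nr4a3, 0.37 for Egr3 and 1.44 for Egr4, and over the 6 libraries left out in turn that of Egr4 ran from 1.44 to 2.91. Npas4, Nr4a1, Fosl2, Sik1 and Egr2 had log2 fold changes between 0.24 and 0.66, none past the threshold. Arc, a synaptic protein whose RNA travels to dendrites, was higher in all 3 heterozygous libraries (14.7, 14.01 and 14.5 CPM against 9.98, 11.9 and 9.97), with an adjusted p of 0.957, while the other 8 members had log2 fold changes between -0.22 and 0.17.

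The libraries of the heterozygous group differed among themselves in these genes. The CPM of the 20 genes summed to 149, 256 and 196 in the WT libraries, to 356, 478 and 277 in the heterozygous libraries and to 164 and 294 in the KO libraries. Library 5f was the highest in the sum and 6f the lowest of its group, only slightly above library 2f of WT and below KO library 8f. That KO library stood apart from the others in this region, with 2635 CPM summed over 17 cortical and hippocampal excitatory neuron genes against 1096 in 7f and 1066 to 1284 in the WT and heterozygous libraries, and the part of this in its immediate early gene level was not tested. Without 5f the median log2 fold change was 0.23 in place of 0.43, and without 1f it was 0.30. Between heterozygous and WT ventral striatum the median of the 20 genes was 0.24, against 0.01 over all genes. Whether the list differed between the regions was not tested.

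**Figure D3:**
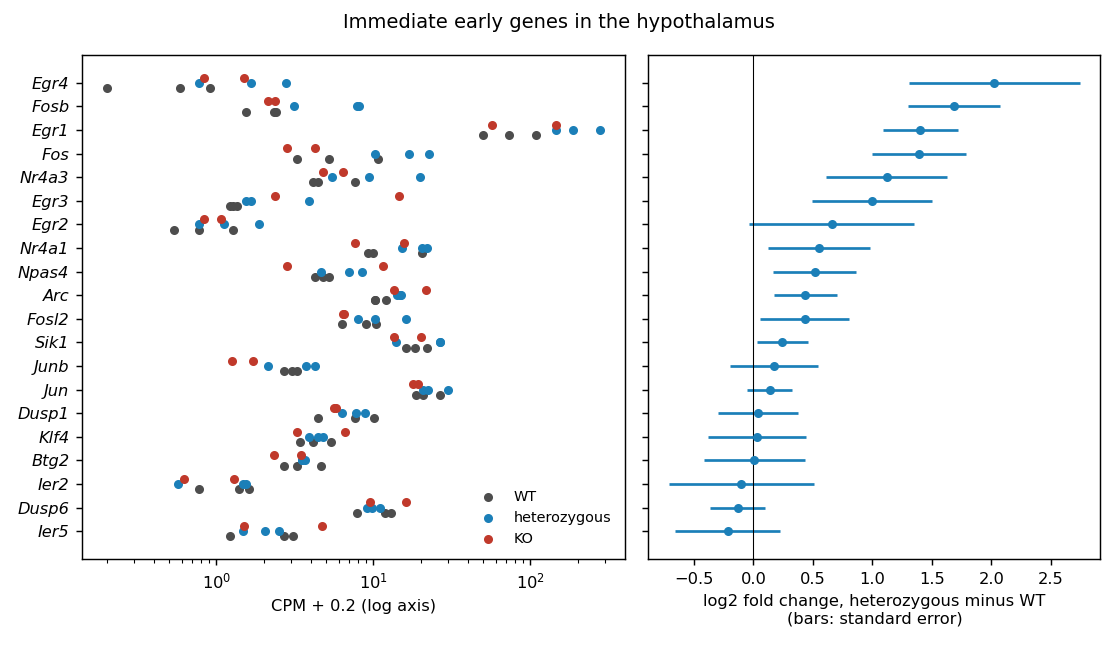
Left, CPM plus 0.2 (log axis) of 20 immediate early genes in each WT, heterozygous and KO hypothalamus library; right, the log2 fold change of heterozygous against WT with its standard error. For Fosb, Egr1 and Fos all 3 heterozygous libraries lay above both KO libraries, although for Egr1 6f barely exceeded 8f. Summed over the 20 genes, KO library 8f, at 294 CPM, lay above heterozygous library 6f, at 277 CPM. Of the 20 fold changes 17 lie above 0.

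The sequences before the starts of Fosb, Fos and Egr4, which together with Egr1 had the 4 highest log2 fold changes of the list, although Fos and Egr4 did not pass after adjustment, are shown because many activity-regulated genes carry binding sites of CREB there. The full cyclic AMP response element is TGACGTCA and its core is TGACG, and capitals mark the core on either strand in the 250 bases before the RefSeq start (GRCm38.p6). Fosb is shown at chr7:19310046-19310295 on the minus strand, Fos at chr12:85473640-85473889 on the plus strand and Egr4 at chr6:85513590-85513839 on the minus strand.
Fosb: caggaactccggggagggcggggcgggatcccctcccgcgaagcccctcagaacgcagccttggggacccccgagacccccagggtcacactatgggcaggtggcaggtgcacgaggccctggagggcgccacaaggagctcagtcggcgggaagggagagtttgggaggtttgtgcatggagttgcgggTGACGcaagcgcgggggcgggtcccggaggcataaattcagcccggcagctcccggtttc
Fos: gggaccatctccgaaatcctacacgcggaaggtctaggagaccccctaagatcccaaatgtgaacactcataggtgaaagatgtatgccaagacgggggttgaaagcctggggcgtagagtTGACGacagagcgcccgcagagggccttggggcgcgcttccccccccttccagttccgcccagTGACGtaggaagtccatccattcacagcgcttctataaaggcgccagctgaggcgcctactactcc
Egr4: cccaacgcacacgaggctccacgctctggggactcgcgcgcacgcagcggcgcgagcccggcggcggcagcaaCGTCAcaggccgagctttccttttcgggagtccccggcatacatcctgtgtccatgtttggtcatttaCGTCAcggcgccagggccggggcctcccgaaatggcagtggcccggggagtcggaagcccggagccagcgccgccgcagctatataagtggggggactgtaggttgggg
The core occurred 1 time in the Fosb window and in 2 places each in the Fos and Egr4 windows, while the full element occurred in none of the 3. Among 27025 RefSeq promoter windows of the same length, 17.9% held the core and 1.62% the full element. The window of Egr1 is not shown, so these 3 windows do not stand for the list. A match to these letters is a description of the sequence and not of binding.

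No gene listed as responsive to glucocorticoids passed after adjustment. Of 15 listed, 14 were tested and 10 were higher, where 53.1% of all genes were, and the median log2 fold change was 0.15. An unadjusted p of 0.05 was passed by 3 members, all higher, where 2.93% of all genes passed in that direction. Sgk1, a kinase induced by corticosterone, was at 18.4, 28.7 and 26.9 CPM in WT and at 36.7, 63.0 and 23.8 CPM in heterozygous libraries, and its log2 fold change was 0.74 (SE 0.30, adjusted p = 0.729). Library 6f lay inside the WT range. Tsc22d3, which encodes the leucine zipper protein GILZ, had a log2 fold change of 0.45 (SE 0.22) and the metallothionein Mt2 one of 0.30 (SE 0.13), whereas Fkbp5, a widely used reporter of glucocorticoid receptor activity, had one of -0.16 (SE 0.20).

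Among the 8 genes called lower, Lhx8 and Vip shared a pattern over the libraries. Lhx8, a LIM homeobox factor of basal forebrain cholinergic neurons, was at 4.41, 0.510 and 5.34 CPM in WT and at 0.367, 0.553 and 0.386 CPM in heterozygous libraries. Vip, the vasoactive intestinal peptide of the suprachiasmatic nucleus and of cortical interneurons, was at 4.41, 0.510 and 4.27 CPM in WT and at 0.367, 0.922 and 0.386 CPM in heterozygous libraries. In both cases the WT libraries 1f and 3f were high and library 2f lay among the heterozygous values, so the groups overlapped. The log2 fold changes were -2.88 (SE 0.68, adjusted p = 0.00533) for Lhx8 and -2.38 (SE 0.63, adjusted p = 0.0356) for Vip in edgeR's likelihood ratio test. Neither call held without 4f, 5f, 6f, 1f or 3f, where the adjusted p reached 0.203 for Lhx8 and 0.632 for Vip, and that of Vip was 0.208 when the model held the heterozygous and WT hypothalamus libraries alone.

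The KO libraries differed between these genes. Lhx8 was as low in KO as in heterozygous hypothalamus, at 0.434 and 0.213 CPM, while Vip was at 4.78 and 2.77 CPM, inside or above the WT range. Lhx8 was far higher in the ventral striatum, a neighbouring region, at 28.8 ± 11.2 CPM in WT (SD, n = 3). The summed CPM of 18 striatal spiny neuron genes was 531 to 561 in WT and 548 to 563 in heterozygous hypothalamus, with a median log2 fold change of -0.02, and that of 17 cortical and hippocampal excitatory neuron genes was 1066 to 1184 in WT and 1090 to 1284 in heterozygous hypothalamus. The sum of 17 thalamic and habenular genes varied more between libraries. It was 1546, 2206 and 1801 CPM in WT libraries 1f, 2f and 3f. In heterozygous libraries 4f, 5f and 6f it was 1793, 1560 and 2504 CPM. The part of tissue from outside the hypothalamus in the level of Lhx8 was not tested. Lhx6 and Dlx6, further homeobox genes of inhibitory neurons, and the peptide Nts also had library 2f as the lowest WT library, with log2 fold changes of -1.13 (SE 0.34), -0.66 (SE 0.26) and -0.71 (SE 0.25) and adjusted p-values of 0.365, 0.729 and 0.672. Without 2f, Fos, Lhx6 and Nts passed the threshold as well.

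Another 5 genes called lower were a mixed set, and each of the 5 calls depended on single libraries. One of them, Snord14e, is described below with the genes of few counts. Ivd, isovaleryl-CoA dehydrogenase of leucine breakdown, was at 28.8, 25.5 and 27.9 CPM in WT, at 17.3, 20.3 and 17.0 CPM in heterozygous and at 14.8 and 13.6 CPM in KO libraries. The 3 genotypes did not overlap and fell in the order WT, heterozygous, KO, with a log2 fold change of -0.59 (SE 0.13, adjusted p = 0.00852) for heterozygous and of -0.95 (adjusted p = 5.49e-06) for KO against the same WT libraries in the likelihood ratio test. In the ventral striatum Ivd was at 24.9 ± 2.98 CPM in WT and 24.0 ± 1.41 CPM in heterozygous libraries (SD, n = 3 each), and the difference between the 2 regions, -0.54, had an adjusted p of 1.0. Akap8l, a nuclear anchoring protein related to AKAP8, was at 37.4, 33.0 and 38.8 CPM in WT and at 27.7, 25.1 and 22.2 CPM in heterozygous libraries (log2 fold change -0.54, SE 0.12, adjusted p = 0.00806), and it was lower in heterozygous ventral striatum by a like amount (-0.52, adjusted p = 0.0270). Its KO hypothalamus libraries lay at 33.4 and 30.2 CPM, both above every heterozygous library. Mbd6, a methyl-CpG-binding domain protein, was at 22.8, 24.0 and 28.1 CPM in WT and at 17.1, 18.2 and 13.9 CPM in heterozygous libraries (log2 fold change -0.60, SE 0.14, adjusted p = 0.0307). Tmc4, a transmembrane channel-like gene, fell from 3.26, 3.06 and 4.27 CPM to 1.29, 1.29 and 0.966 CPM (log2 fold change -1.55, SE 0.41, adjusted p = 0.0366). It overlaps Leng1 on the same strand, so the counting may have set aside reads shared by the pair. Neither Mbd6 nor Tmc4 passed when any one of the 6 libraries was left out (adjusted p from 0.0546 to 0.515 for Mbd6 and from 0.0623 to 0.479 for Tmc4). Ivd did not pass without 4f, 6f, 1f or 3f (adjusted p up to 0.168) and Akap8l without 5f, 6f, 1f or 3f (up to 0.216). With the heterozygous and WT hypothalamus libraries alone in the model, the adjusted p was 0.0556 for Akap8l and 0.0622 for Mbd6.

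For 3 called genes a group held almost no counts. Myh8, a perinatal myosin heavy chain, had 0, 1 and 0 counts in the WT libraries and 7, 10 and 4 in the heterozygous libraries, a ratio of depth-scaled counts of 21.9 with a 95% exact counting interval of 3.52 to 905. Snord14e, a small nucleolar RNA within an intron of Hspa8, had 6, 8 and 6 counts in WT and 1, 0 and 0 in heterozygous libraries, a ratio of 19.2 in favour of WT with an interval of 3.07 to 796. Its host gene Hspa8 did not pass the test (log2 fold change 0.17, SE 0.13). Pcna-ps2, a processed pseudogene of the replication clamp gene Pcna on chromosome 19, had 2, 0 and 0 counts in WT, 7, 9 and 8 in heterozygous and 15 and 11 in KO libraries, and the ratio of heterozygous to WT was 12.5 with an interval of 3.10 to 109. Pcna itself lies on chromosome 2, 5.63 Mb from the start of Hdc, and so among the genes near Hdc described below. Pcna had 66, 77 and 52 counts in WT, 51, 46 and 60 in heterozygous and 40 and 30 in KO libraries. Reads can be shared between a gene and its near-identical copy, so the level of Pcna-ps2 is uncertain. These intervals cover counting error only. The calls were lost without 5f, 1f or 3f for Myh8 (adjusted p up to 0.239), without 5f, 2f or 3f for Pcna-ps2 (up to 0.192) and without any library but 4f for Snord14e (up to 0.263).

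Because Pla2g4e and Ivd both lie on chromosome 2, the neighbourhood of Hdc was examined. Within 10 Mb of the gene 190 genes were tested, of which 109 were higher and 81 lower, with a median log2 fold change of 0.02. An unadjusted p of 0.05 in the likelihood ratio test was passed by 8 genes that were higher and 3 that were lower. That was 5.79% of the 190, close to the 5.70% of all genes. Without Hdc, Pla2g4e and Ivd, 7 of 187 passed it as higher and 2 as lower. After adjustment 1 of the 190 was called higher and 1 lower, where 0.10% of all genes were called. Both were the genes that prompted this look. Both called genes lay on the same side of Hdc, Ivd at -7.76 Mb and Pla2g4e at -6.37 Mb from its start, where a minus sign marks lower coordinates. Ganc, an alpha-glucosidase gene, lay at -6.22 Mb with a log2 fold change of 0.54 (SE 0.20, 0.82 in KO), and Exd1, an exonuclease domain gene, at -7.07 Mb with one of 1.49 (SE 0.63, 2.32 in KO). Itpka, an inositol trisphosphate kinase gene in the same stretch at -6.88 Mb, had a log2 fold change of -1.11 (SE 0.46) in heterozygous and of 1.36 in KO libraries, of which 8f was far above 7f. None of these 3 passed after adjustment. Genes this close to Hdc can be inherited together with its disrupted copy, although the line was backcrossed to C57Bl/6. Counts per gene do not show which sequence these genes carry. An effect of the disruption and one of sequence differences in a linked stretch therefore cannot be told apart for them.

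**Figure D4:**
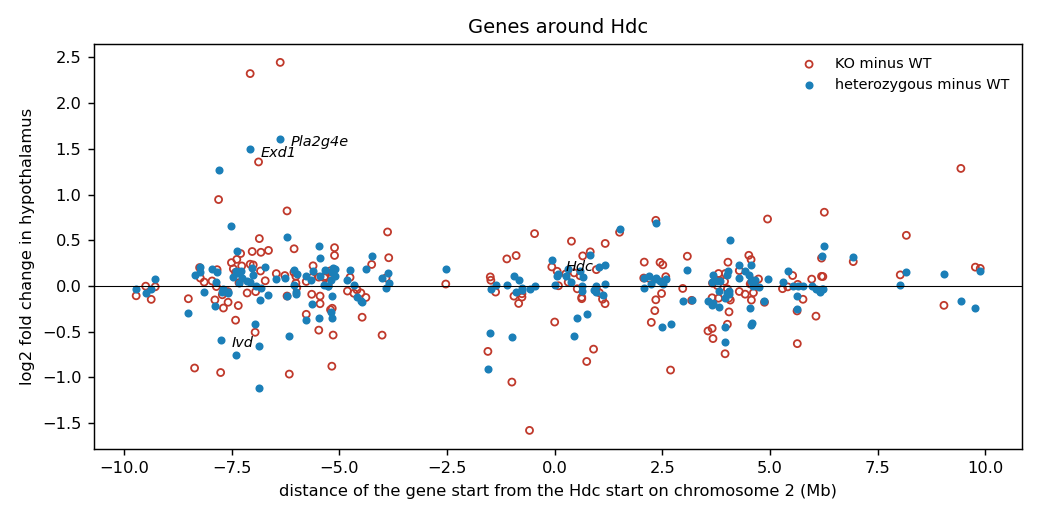
Log2 fold change in hypothalamus of 190 genes within 10 Mb of Hdc on chromosome 2 against the distance of each gene's start from that of Hdc, for heterozygous (filled) and KO (open) against the same WT libraries. Pla2g4e, at 1.61 in heterozygous and 2.44 in KO, and Ivd, at -0.59 and -0.95, were the 2 genes called in heterozygous hypothalamus.

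No gene of the neuroendocrine hormones by which the hypothalamus is usually described passed the test. Of 10 neuroendocrine hormone genes 8 were tested, 3 were higher and 5 lower, none passed an unadjusted p of 0.05, and the median log2 fold change was -0.35, or -0.45 under library size alone. Oxt, the oxytocin gene, was at 17.5, 14.3 and 23.0 CPM in WT and at 12.3, 17.3 and 5.99 CPM in heterozygous libraries, and Avp, the vasopressin gene, was at 15.5, 12.1 and 19.05 CPM in WT and at 12.5, 18.1 and 3.67 CPM in heterozygous libraries. Library 6f was the lowest for both and also for Trh, at 14.7 CPM, and without it the median of the list was -0.07. Crh, the corticotropin-releasing hormone gene, had a log2 fold change of -1.05 (SE 0.57, adjusted p = 0.875) at levels no higher than 1.78 CPM.

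Of 26 feeding and arousal neuropeptides 23 were tested, 10 were higher and 13 lower, with a median log2 fold change of -0.05, and Vip was the only one called. Cartpt, the anorexigenic CART peptide, was at 29.2, 28.9 and 29.9 CPM in WT and at 46.7, 42.4 and 37.5 CPM in heterozygous libraries. The groups did not overlap, which in this direction was so for 1 of the 23 genes and for 6.18% of all genes. The log2 fold change of 0.52 (SE 0.22) had an adjusted p of 0.742 in the likelihood ratio test. Npy, the orexigenic neuropeptide Y, had a log2 fold change of 0.34 (SE 0.19), Hcrt one of 0.16 (SE 0.20) and Pmch one of 0.12 (SE 0.18). Of 36 receptors for feeding signals and hormones 18 were higher and 18 lower, with a median of 0.00, and the somatostatin receptor Sstr1 was the only one past an unadjusted p of 0.05 (log2 fold change -0.63, SE 0.24). Among 36 hypothalamic transcription factors, 23 were higher, with a median of 0.11. Lhx8 was the one called, and Lhx1, a factor of the suprachiasmatic nucleus, was higher in all 3 heterozygous libraries (14.1, 15.3 and 14.1 against 9.78, 10.4 and 9.08 CPM, log2 fold change 0.57, SE 0.19, adjusted p = 0.585). All heterozygous libraries lay above all WT libraries for 3 of these 36 genes, beside 6.18% of all genes. All 19 core clock and clock output genes were tested, 11 were higher, and the median was 0.02, or -0.09 under library size alone.

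**Figure D5:**
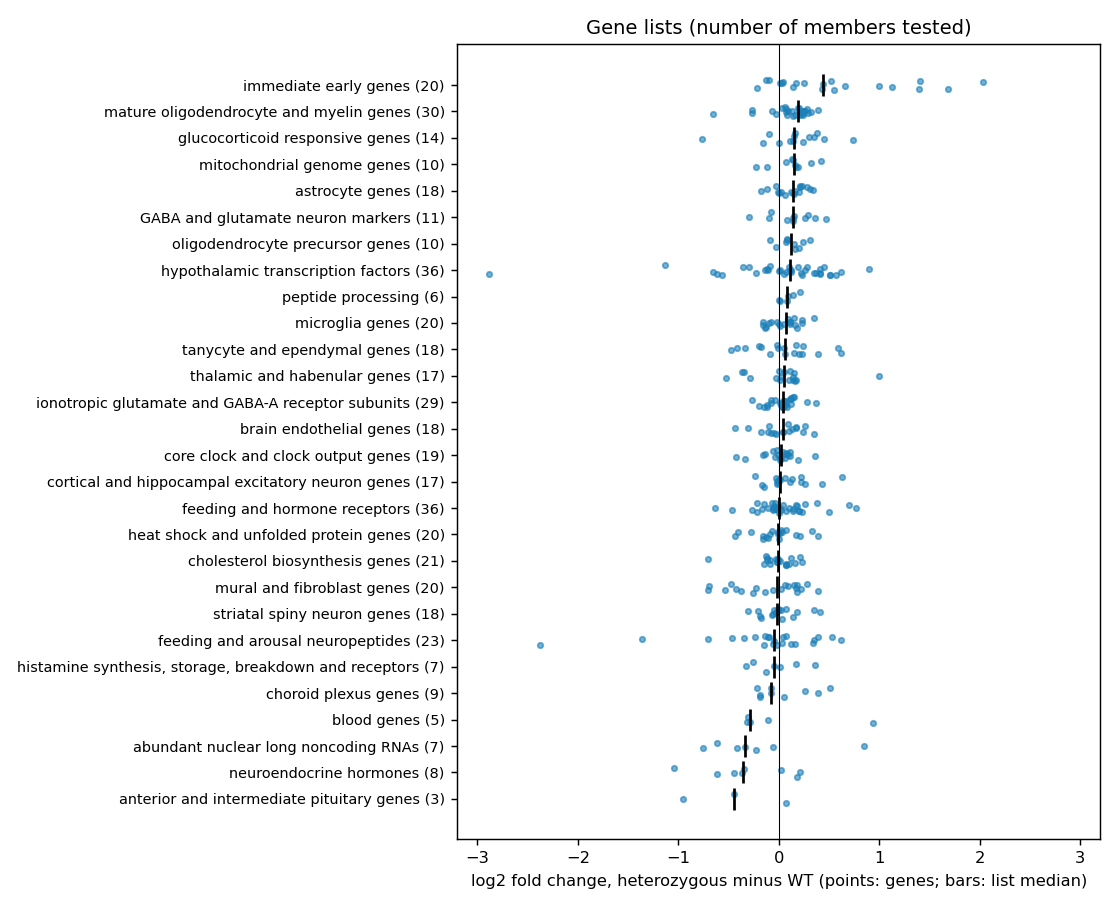
Log2 fold change of heterozygous against WT hypothalamus for the tested members of 28 gene lists, with a black bar at each list's median. Immediate early genes have the highest median, 0.43, and most lists sit within 0.2 of 0.

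No marker of glia passed after adjustment. Of 30 mature oligodendrocyte and myelin genes 25 were higher, where 53.1% of all genes were, with a median log2 fold change of 0.19. An unadjusted p of 0.05 was passed by 2 of them, both higher, where 2.93% of all genes passed in that direction. They were the myelin regulatory factor Myrf (0.39, SE 0.15) and the transferrin gene Trf (0.32, SE 0.16). The CPM of the 30 genes summed to 5208, 5364 and 4811 in WT and to 5668, 4427 and 7579 in heterozygous libraries. Library 6f was the highest of all and 5f the lowest, and without 6f the median was -0.06. Of 18 astrocyte genes 14 were higher, with a median of 0.14. With library size alone as the scale, 19 of the myelin genes and 11 of the astrocyte genes were higher, with medians of 0.09 and 0.04. Slc4a4, an astrocytic bicarbonate transporter, had the smallest p among them, at 420, 445 and 414 CPM in WT and 494, 568 and 525 CPM in heterozygous libraries (log2 fold change 0.31, SE 0.11, adjusted p = 0.641). The medians were 0.12 for 10 oligodendrocyte precursor genes, 0.07 for 20 microglia genes, 0.04 for 18 brain endothelial genes and -0.02 for 20 mural and fibroblast genes, of which those of microglia and endothelium turned negative under that scale.

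Abundant nuclear long noncoding RNAs mostly had negative fold changes. Of 9 listed 7 were tested, and all but Gm26917 had a negative log2 fold change, so the median was -0.33. Malat1, a component of nuclear speckles, was at 1446, 1076 and 1158 CPM in WT and at 898, 971 and 894 CPM in heterozygous libraries. The groups did not overlap, a pattern that 723 genes (5.17%) showed in this direction, and the log2 fold change of -0.41 (SE 0.17) had an adjusted p of 0.767. Mirg, a noncoding RNA of the imprinted Dlk1-Dio3 domain, lay just outside the threshold (log2 fold change -0.75, SE 0.19, adjusted p = 0.0679), at 46.8, 37.6 and 32.8 CPM in WT and 27.4, 20.1 and 22.03 CPM in heterozygous libraries, and Miat had a log2 fold change of -0.62 (SE 0.24). Kmt5c, a histone H4 lysine methyltransferase, was the next gene outside it (-0.87, SE 0.23, adjusted p = 0.0893).

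Both Polr2a and Crebbp were among the 410 genes that were higher at an unadjusted p of 0.05, and neither passed after adjustment. Polr2a, the largest subunit of RNA polymerase II, was at 101, 105 and 102 CPM in WT and 128, 134 and 130 CPM in heterozygous libraries (log2 fold change 0.35, SE 0.10, adjusted p = 0.221), and Crebbp, the CREB-binding acetyltransferase, at 195, 216 and 196 against 246, 259 and 254 CPM (0.32, SE 0.10, adjusted p = 0.450). Polr2a was as high in KO, at 132 and 127 CPM, and neither gene had overlapping groups, as was so in this direction for 6.18% of all genes.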

How the data were processed

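For 3 WT, 3 heterozygous and 2 KO libraries, RNA of dissected hypothalamus had been amplified with the Ovation RNA-Seq system V2 and sequenced as single-end reads. The deposited values are counts of reads per Ensembl gene, one table per library, in the unit counts and without normalization. Per the submitters' processing notes the authors used Trimmomatic 0.32, Bowtie2 2.2.3, STAR 2.3.1z8, SAMtools 0.1.19 and HTSeq 0.6.1p1 on GRCm38, and their methods give Bowtie2 for removal of ribosomal RNA and union mode for HTSeq, whereas the strand setting is not given in the sources used here. The HTSeq summary lines were left out of library sizes and tests, and genes received 51.7 to 54.2% of the reads tallied in the 6 libraries. Of 29878 gene identifiers, 28842 were named from GENCODE M21.

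The filter kept every gene that passed 1 CPM in 2 or more of the 6 libraries, and testing used edgeR 4.0.16 (R 4.3.3) with TMM factors, all 28 libraries in a model with 12 means (region by genotype), and the likelihood ratio test, which follows the authors' choice, with Benjamini-Hochberg adjustment at 0.05 over all genes tested. CPM are counts scaled to library size after TMM, and fold changes are on the log2 scale of the fitted means. The script was tested on simulated data. No 2 libraries of a group agreed within sampling noise. Alternatives were edgeR's quasi-likelihood test, DESeq2 1.42.0, other sets of libraries, scalings and filters, and leaving out each library. The members and the 28 gene lists were chosen with earlier results of these data known. Genes named are the histamine genes, all called genes, those with the smallest p in each direction and in each list; Arc, Hcrt, Pmch, Npy, Egr3, Nr4a3, Npas4, Nr4a1, Fosl2, Sik1, Egr2, Fkbp5, Pcna, Leng1, Gm42418, Ganc, Exd1 and Itpka were added after their values were seen. Sequences are RefSeq's, from GRCm38.p6, and the 3 genes whose sequences are printed were matched by symbol. Of the called genes, 1 is not reported here.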

Additional observations from a re-analysis of the deposited data

Results flagged for a closer look

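The difference between heterozygous and WT libraries in Hdc was not the same in hypothalamus and ventral striatum. It was 0.01 on the log2 scale in hypothalamus and 3.03 in ventral striatum, so that the hypothalamic effect minus the ventral striatal effect was -3.02 (SE 0.61, adjusted p = 1.68e-05 in edgeR's likelihood ratio test over 13975 genes). All 3 heterozygous ventral striatum libraries, at 5.31, 5.24 and 5.52 CPM, lay above the 3 WT libraries there, at 0.289, 1.62 and 0 CPM, whereas in hypothalamus 17.1 ± 3.92 CPM in heterozygous and 16.9 ± 1.87 CPM in WT libraries (SD, n = 3 each) overlapped. In the quasi-likelihood test the difference kept its size, with an adjusted p of 0.121.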

How the results depend on the processing

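Of the 14 genes called, 2 remained with the quasi-likelihood test and the same 2 with DESeq2 when all genes were adjusted together, an alternative chosen after seeing the data. DESeq2 with its independent filtering called 1, Gm26917, but gave an adjusted p to only 699 genes, and 11 of the 13 called genes reported here had none. Leaving out libraries gave 2 to 13 calls, with 3 without 5f, 6 without 6f, 3 without 1f and 2 without 3f, and the cause was not tested. RLE scaling and library size alone kept all 14 genes. For Hdc the direction turned under library size alone (-0.091) and within the range without single libraries, -0.21 to 0.11. Other reversals were small: Gm42418 under library size alone (-0.048) and without single libraries (-0.16 to 0.20), Hcrt (-0.051 to 0.34), Pmch (-0.054 to 0.28) and Hrh3 (-0.14 to 0.013). The count of genes that differed between hypothalamus and ventral striatum was 1, became 0 with the quasi-likelihood test (461 at an unadjusted p of 0.05), 2 with library size alone and 1 to 5 without single libraries (3 without 5f, 5 without 2f), and stayed 1 with a replicate block on the library digit. No paired analysis was possible because heterozygous and WT libraries of the hypothalamus carry different digits. Same-digit libraries of the 2 regions correlated between -0.04 and 0.09 in their deviations, and different-digit libraries between -0.09 and 0.04. With 3 libraries set against their own group mean, this measure cannot show whether a digit marks a mouse. Depths of 4388823 to 4901109 counts leave genes near 1 CPM with few counts.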

Other observations

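Lists outside the pathways above gave the following values. Among 11 tested markers of GABA and glutamate neurons 8 were higher in heterozygous hypothalamus, with a median log2 fold change of 0.14, and of 29 subunits of ionotropic glutamate and GABA-A receptors 21 were higher, with a median of 0.04 that turned to -0.06 under library size alone. Grin2b, an NMDA receptor subunit, had the smallest p of these (384, 532 and 466 CPM in WT, 518, 547 and 615 in heterozygous libraries, log2 fold change 0.28, SE 0.14, adjusted p = 0.867 in edgeR's likelihood ratio test). Mitochondrially encoded genes had a median of 0.15 over 10 tested, with 8 higher, and mt-Nd4 was at 2872, 2523 and 2788 CPM in WT and 3647, 4026 and 3237 in heterozygous libraries. The medians were 0.08 for 6 genes of peptide processing, -0.01 for 20 heat shock and unfolded protein genes, -0.01 for 21 cholesterol biosynthesis genes, 0.06 for 18 tanycyte and ependymal genes, -0.08 for 9 choroid plexus genes, -0.28 for 5 blood genes, -0.45 for 3 pituitary genes, 0.05 for 17 thalamic and habenular genes and 0.01 for 17 cortical and hippocampal excitatory neuron genes, and no member of these lists passed after adjustment.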
